A study of Mus musculus with 12 samples.

Results

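The mouse mitochondrial chromosome carries 37 annotated genes, and their reads were followed here through 12 libraries from the extensor digitorum longus (EDL), a fast hindlimb muscle. Members were the rows of the deposited gene count table whose Ensembl ID carries a symbol starting with mt- on the mitochondrial chromosome of the GENCODE vM21 annotation (GRCm38). This gave 13 mRNAs, 2 rRNAs and 22 tRNAs, 37 of the 55573 rows in all. Groups of 3 libraries were made from 1 EDL myofiber, from 5 myofibers pooled, from 20 myofibers pooled and from the whole EDL. All mice were of the strain C57BL/6, and the labels give no other genotype, treatment, age or sex. The labels describe direct lysis for the single myofibers and Trizol extraction for the whole muscle, so isolation, extraction and group cannot be told apart in any comparison of isolated fibers with whole muscle. Every library was made with the same SMART-Seq HT kit, whose cDNA synthesis starts from oligo-dT. The labels do not say whether the libraries of a group came from separate animals, so p-values measure only the spread between these libraries, which may be technical. A whole muscle library holds other cell types beside fibers, and fewer cells of a type and less RNA per cell cannot be told apart.

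As background, both strands of the mitochondrial chromosome are transcribed into long precursors. The tRNAs punctuate these precursors and are cut out of them, which frees the mRNAs and rRNAs lying between them. The rRNAs and most of the mRNAs then receive short poly(A) tails, while the tRNAs receive a CCA end. The mRNAs encode subunits of respiratory complexes I, III and IV and of the ATP synthase, and the rRNAs and tRNAs serve the translation of these mRNAs inside the organelle. Fast muscle fibers contain mitochondria between their myofibrils and under their membrane. In the annotation, 28 of the 37 genes lie on the plus strand, and mt-Nd6 and 8 tRNAs lie on the minus strand. No source used here states whether reads were counted by strand. Without strand, reads from a minus-strand gene and from the opposite strand of the same bases cannot be told apart.

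The libraries held between 4702823 and 27787120 counted reads. TMM scaling factors, which edgeR derives from the trimmed mean of gene-wise log ratios between libraries, ran between 0.516 and 1.54 in 11 libraries and reached 4.06 in 20-fiber pool 2, which lowers every scaled value of that library. Reads on 1504 receptor genes of smell, taste and the vomeronasal organ, which sensory cells express, were taken as a measure of reads on genes of other tissues. Of these genes 58.1% and 68.8% had a read in 5-fiber pools 1 and 2 and 78.7% to 97.3% in the 20-fiber pools. In the other 4 fiber libraries this share was 4.59% to 26.7%, and in whole muscle it was 2.33% to 4.85%. These 5 pools stood apart from the other libraries, so log2 fold changes for isolated fibers are also given without them. No 20-fiber pool is left without them and 1 5-fiber pool is, so the comparisons of these groups are given with them, and the part of the receptor reads in those comparisons was not tested. Fast fiber marker genes were detected in every library, at a summed 10691 to 304576 CPM (read counts scaled to library size) in fiber libraries and 71507 to 103047 CPM in whole muscle. Adipocyte markers summed to at most 3.88 CPM in fiber libraries, against 894 to 1073 CPM in whole muscle. Endothelial markers summed to 0.729 to 435 CPM in fiber libraries and 828 to 994 CPM in whole muscle.

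The sequences of 4 tRNAs on which later results turn are given from GENCODE vM21 transcripts (GRCm38), with the anticodon in capitals. mt-Tq, the glutamine tRNA, lies at chrM:3772-3842 on the minus strand. mt-Tp, the proline tRNA, lies at chrM:15356-15422 on the minus strand. mt-Tm, the methionine tRNA, lies at chrM:3845-3913 on the plus strand, and mt-Tf, the phenylalanine tRNA, lies at chrM:1-68 on the plus strand. mt-Tq and mt-Tm are neighbours 2 bases apart on opposite strands, and mt-Tm ends where mt-Nd2 begins.
mt-Tq: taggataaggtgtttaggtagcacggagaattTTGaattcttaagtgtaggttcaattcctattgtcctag
mt-Tp: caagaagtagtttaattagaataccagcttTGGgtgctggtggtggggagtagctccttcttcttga
mt-Tm: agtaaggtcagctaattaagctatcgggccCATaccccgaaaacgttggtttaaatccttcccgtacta
mt-Tf: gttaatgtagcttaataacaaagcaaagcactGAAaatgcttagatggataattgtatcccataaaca

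Part of the mitochondrial chromosome has a nearly identical copy in the nuclear genome, which bears on the values of the mRNAs inside it. A block of 7 annotated pseudogenes on chromosome 1, chr1:24611535-24616197 over 4663 bases, matched a run of mRNA genes that starts inside mt-Co1 and ends inside mt-Nd4. Gm28661 was identical to mt-Co2 over all 681 aligned bases. Gm10925 was identical to mt-Atp6 over 678 aligned bases, Gm28437 to mt-Co3 over 783, Gm10222 to mt-Nd4l over 294 and Gm28439 to mt-Nd4 over 876. Gm28438 matched mt-Nd3 at 344 of 345 bases and differed by T3C, counted from the first base of the mitochondrial gene. The copy of mt-Co1, Gm29216, matched at 486 of 492 bases. Its differences all lie at its edge, and the stretch that holds them is printed with them in capitals, followed by a stretch of mt-Co2 and Gm28661 in which no base differs.
mt-Co1: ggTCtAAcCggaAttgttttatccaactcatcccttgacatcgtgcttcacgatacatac
Gm29216: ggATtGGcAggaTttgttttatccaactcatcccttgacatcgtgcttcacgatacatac
mt-Co2: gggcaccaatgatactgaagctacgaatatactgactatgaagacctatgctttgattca
Gm28661: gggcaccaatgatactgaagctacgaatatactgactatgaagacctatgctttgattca

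The 6 substitutions between mt-Co1 and Gm29216, the mitochondrial base first and positions counted from the first base of mt-Co1, were T1056A, C1057T, A1059G, A1060G, C1062A and A1066T. The stretches lie at chrM:6381-6440 and chrM:7313-7372 on the plus strand, and at chr1:24616138-24616197 and chr1:24615206-24615265 on the minus strand. A read that falls within an identical stretch has 2 possible sources, and how the authors' counting treated such reads is not given in the sources used here. Of all 50-base windows of each gene, 100% were found in an annotated nuclear transcript for mt-Co2, 99.9% for mt-Co3, 99.5% for mt-Atp6, 98.8% for mt-Nd4l and 98.0% for mt-Nd3. The share was 62.2% for mt-Nd4 and 51.1% for mt-Co1, at most 8.2% for mt-Nd2, mt-Nd5 and mt-Rnr2, and 0% for mt-Nd1, mt-Nd6, mt-Cytb, mt-Rnr1 and all 22 tRNAs. mt-Atp8 shared no window with an annotated transcript, but it lies between mt-Co2 and mt-Atp6, whose copies flank the same place in the block. The tRNAs mt-Ts1, mt-Td, mt-Tk, mt-Tg and mt-Tr likewise lie between genes with a copy in the block. Nuclear sequence outside annotated transcripts was not searched.

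Mitochondrial transcripts took 11.9%, 22.7% and 16.1% of the counted reads in single fibers 1, 2 and 3. In the 5-fiber pools they took 49.0%, 54.8% and 12.96%, and in the 20-fiber pools 29.8%, 14.7% and 23.4%. Whole muscle had 9.65%, 6.99% and 7.15%, so every fiber library lay above every whole muscle library. The counting intervals of these shares (95%, Clopper-Pearson) were narrow, for example 11.91% to 11.94% in single fiber 1. Intervals of this kind cover counting error only, since amplified reads are not independent molecules.

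**Figure D1:**
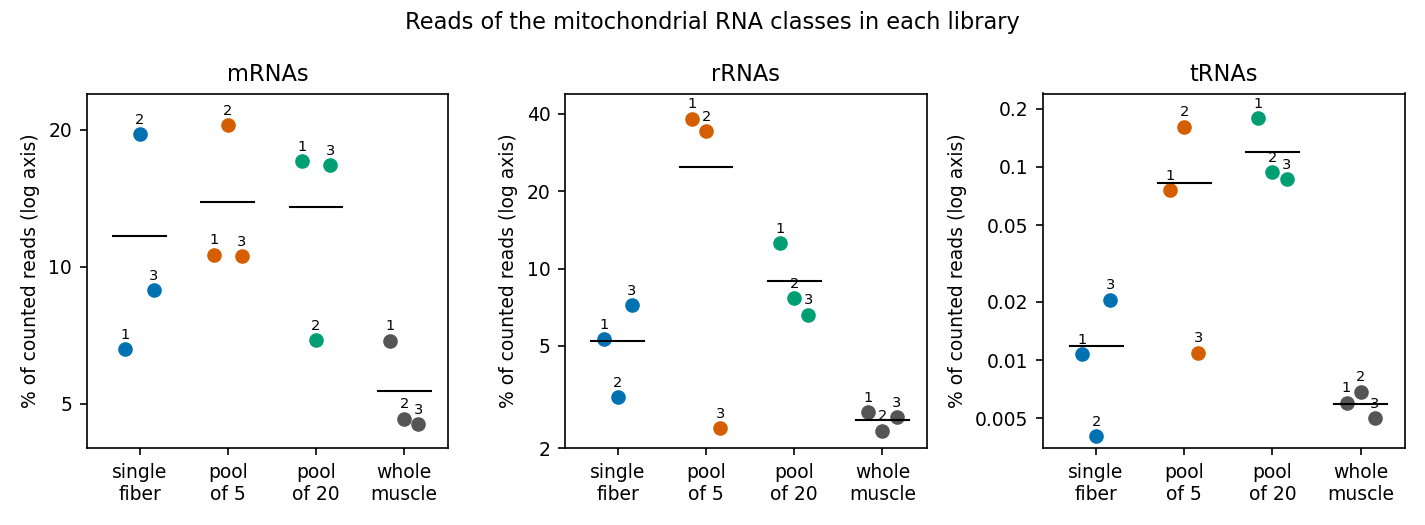
Share of all counted reads on the mitochondrial mRNAs, rRNAs and tRNAs in each of the 12 libraries, on log axes; points are libraries, the digit is the library number within its group and the bar is the group mean. The rRNA shares of 5-fiber pools 1 and 2 (38.3% and 34.2%) stand above all others, and the tRNA shares of 5 pools (0.0755% to 0.179%) stand above those of the other 7 libraries (0.00405% to 0.0205%).

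The mRNAs held 6.59%, 19.6% and 8.88% of the reads of single fibers, 10.6%, 20.5% and 10.6% of those of 5-fiber pools and 17.0%, 6.91% and 16.7% of those of 20-fiber pools, against 6.88%, 4.64% and 4.51% in whole muscle. Single fiber 1 lay within the whole muscle range, and the other 8 fiber libraries lay above it. The rRNAs held 5.32%, 3.15% and 7.21% in single fibers, 38.3%, 34.2% and 2.39% in 5-fiber pools and 12.5%, 7.67% and 6.60% in 20-fiber pools, against 2.76%, 2.34% and 2.63% in whole muscle. 5-fiber pool 3 lay within the whole muscle range. rRNA and mRNA reads therefore did not keep a fixed proportion, with 0.161 to 3.61 rRNA reads per mRNA read over the fiber libraries and 0.400 to 0.584 in whole muscle.

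The tRNAs were the smallest class. They held 0.0107%, 0.00405% and 0.0205% of the reads of single fibers, 0.0755%, 0.162% and 0.0109% of those of 5-fiber pools and 0.179%, 0.0939% and 0.0864% of those of 20-fiber pools, against 0.00602%, 0.00685% and 0.00501% in whole muscle. Per 1000 mRNA reads there were 0.207 to 2.31 tRNA reads in single fibers, 1.04 to 7.91 in 5-fiber pools and 5.17 to 13.6 in 20-fiber pools, against 0.875 to 1.48 in whole muscle. The 5 pools with reads in over 50% of the receptor genes were the 5 with the highest tRNA shares, 0.0755% to 0.179%, while the other 4 fiber libraries had 0.00405% to 0.0205%. The part of those receptor reads in the tRNA values was not tested.

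Between mRNAs, levels were compared as TMM-scaled CPM per kilobase of gene (CPM per kb). By the mean over the 12 libraries mt-Nd1, a core subunit of complex I, ranked first. It had 24514, 99349 and 28826 CPM per kb in single fibers, 55166, 77573 and 45580.4 in 5-fiber pools and 50519.5, 4777 and 42476 in 20-fiber pools, against 8507, 6626 and 6409.9 in whole muscle. All fiber libraries but 20-fiber pool 2 were above whole muscle. mt-Cytb, the cytochrome b of complex III, followed, with 20738, 102993 and 16139 CPM per kb in single fibers, 42809.6, 47310.0 and 41043 in 5-fiber pools, 28329.9, 2781 and 20954 in 20-fiber pools and 10593, 8913 and 8631 in whole muscle. mt-Nd2, another complex I subunit, came next, with 12468, 42427 and 16459 CPM per kb in single fibers, 20399.7, 26311 and 13477 in 5-fiber pools, 20176, 2279 and 15706 in 20-fiber pools and 2868, 2319 and 2471 in whole muscle. For both genes 20-fiber pool 2 was again the 1 fiber library that did not exceed whole muscle. The order in whole muscle alone was another, with mt-Cytb at a mean of 9379 CPM per kb and mt-Co1 at 7947 above mt-Nd1 at 7181 and mt-Nd2 at 2553.

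mt-Nd4, mt-Co1, mt-Nd6 and mt-Nd5 came after these, with means over the 12 libraries of 14574, 13089, 6617 and 4033 CPM per kb. The remaining 6 mRNAs were far lower. mt-Co2 and mt-Co3, core and structural subunits of complex IV, averaged 423 and 336 CPM per kb, mt-Atp6, the proton channel subunit of the ATP synthase, 183, and mt-Nd3, of complex I, 36.6. mt-Atp8, of the ATP synthase, and mt-Nd4l, of complex I, were the lowest at 15.1 and 6.02 CPM per kb. mt-Atp8, on 5 to 200 reads a library, had 9.19, 65.0 and 21.6 CPM per kb in single fibers, 10.9, 18.2 and 21.2 in 5-fiber pools and 4.97, 1.28 and 5.19 in 20-fiber pools, against 11.02, 5.81 and 6.79 in whole muscle. The 20-fiber pools all lay below whole muscle, and the other fiber libraries overlapped it or lay above it. mt-Nd4l, on 5 to 71 reads a library, had 4.30, 15.9 and 8.48 CPM per kb in single fibers, 7.50, 13.0 and 4.10 in 5-fiber pools and 7.59, 0.882 and 4.37 in 20-fiber pools, against 3.24, 1.20 and 1.77 in whole muscle. Of the 9 fiber libraries, 20-fiber pool 2 alone did not exceed all whole muscle libraries for mt-Nd4l. These 6 are the 5 mRNAs with over 95% of their windows shared with the chromosome 1 block, together with mt-Atp8. They were grouped in that way after their values were seen. The median of mt-Nd1, mt-Nd2, mt-Nd5, mt-Nd6 and mt-Cytb was 99.5 to 253 times the median of these 6 in fiber libraries and 71.7 to 97.9 times in whole muscle. They held 0.280% to 0.743% of the mitochondrial mRNA reads of fiber libraries and 0.320% to 0.364% of those of whole muscle. The 7 chromosome 1 pseudogenes themselves held 0.0649% to 0.682% of the counted reads of fiber libraries and 0.0220% to 0.0248% of those of whole muscle. Levels of these 6 mRNAs are therefore uncertain, and so is any order between them and the other 7.

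**Figure D2:**
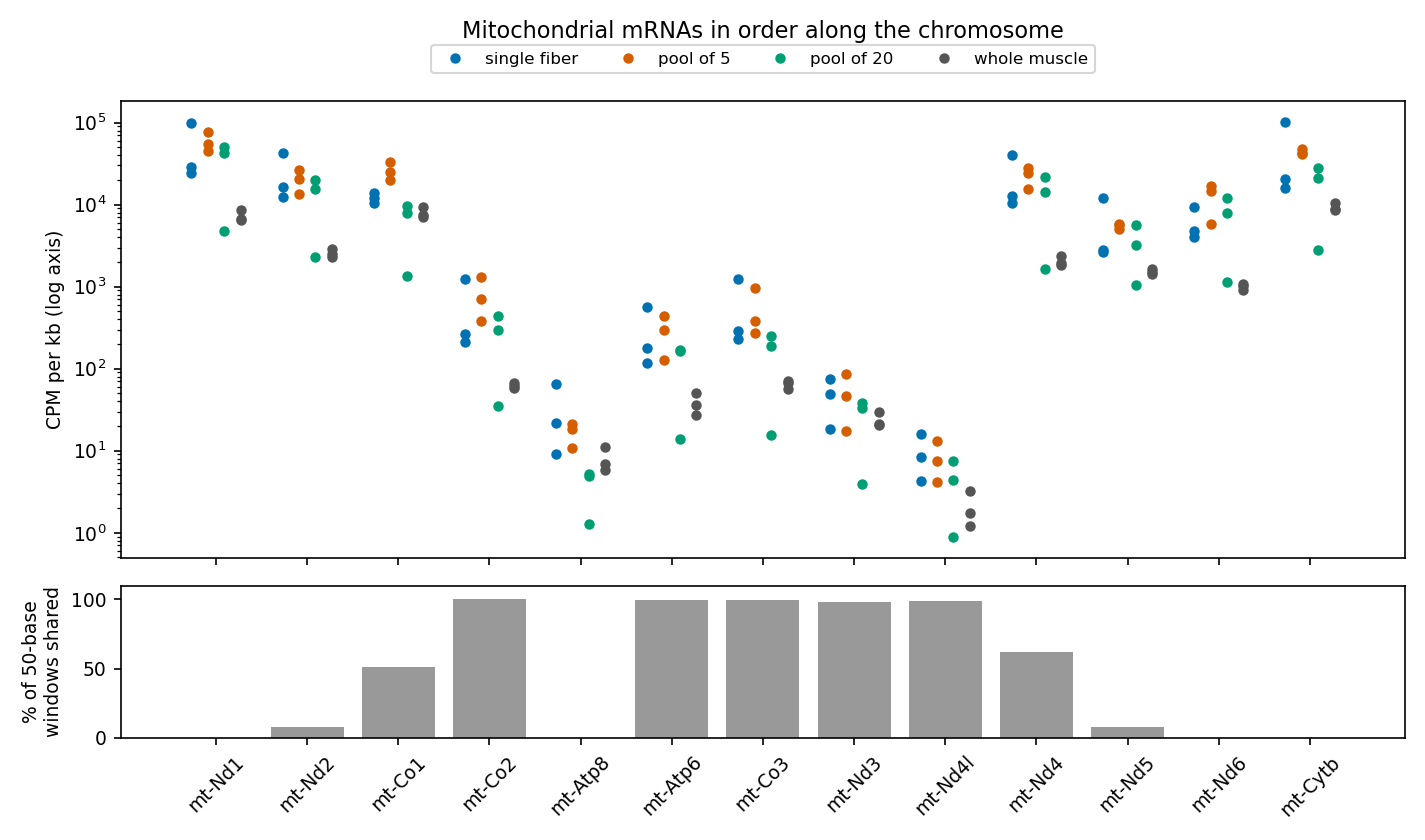
Upper panel, TMM-scaled CPM per kb (log axis) of the 13 mitochondrial mRNAs in chromosome order, 1 point per library, 3 libraries per group; lower panel, the percentage of each gene's 50-base windows that also occur in an annotated nuclear transcript. mt-Co2, mt-Atp6, mt-Co3, mt-Nd3 and mt-Nd4l, with 98.0% to 100% of windows shared, sit well below mt-Nd1, mt-Nd2, mt-Nd5, mt-Nd6 and mt-Cytb in all 4 groups, and so does mt-Atp8.

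Spread between libraries differed by group. The median coefficient of variation over the 13 mRNAs (SD over mean of the CPM, n = 3 libraries) was 0.826 in single fibers, 0.320 in 5-fiber pools and 0.758 in 20-fiber pools, against 0.134 in whole muscle. Single fiber 2 was the highest of the single fibers for every mRNA but mt-Co1, and 20-fiber pool 2 was the lowest of all libraries for every mRNA but mt-Nd6. Its scaling factor of 4.06 divides each of these values, and its unscaled mRNA share of 6.91% was above the 6.88% of the highest whole muscle library.

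Isolated fibers as a whole, the mean of the 3 fiber groups, were set against whole muscle with edgeR's quasi-likelihood test and Benjamini-Hochberg adjustment over all genes tested (a call is adjusted p under 0.05). Of 22110 genes tested, 15.2% were called in either direction and 7.46% were higher and 7.78% lower in fibers. Of the 13 mRNAs, all of which passed the low-count filter, 4 rose: mt-Nd6, mt-Co2, mt-Co3 and mt-Atp6. None fell, and 9 did not pass, while 7 had an unadjusted p under 0.05. DESeq2 called 11 higher, beside 20.8% of all genes higher with DESeq2. An edgeR fit of the 9 fiber libraries as 1 group against the 3 of whole muscle called 0 of the 13, beside 0.977% of all genes higher. mt-Nd4l passed the filter only through fiber libraries in each comparison with whole muscle, and the other 12 mRNAs would have passed from the whole muscle libraries alone. The median log2 fold change of the 13 was 2.59, beside 0.40 for all genes tested. mt-Nd6, the complex I subunit on the minus strand, had 3978, 9265 and 4703 CPM per kb in single fibers, 14650.5, 16889.8 and 5830.2 in 5-fiber pools and 12049.9, 1152 and 7888 in 20-fiber pools, against 1074, 920.1 and 1007 in whole muscle. It was the sole mRNA for which all 9 fiber libraries exceeded all 3 whole muscle libraries, a pattern found in 2.17% of the genes tested. Its log2 fold change was 3.13 ± 0.96 (SE, adjusted p = 0.0364). It kept its call in 2 of the 12 fits that left out 1 library, those without 5-fiber pool 3 and without 20-fiber pool 2.

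mt-Co2 had 263, 1254 and 214 CPM per kb in single fibers, 715, 1298 and 378 in 5-fiber pools and 442, 35.3 and 294 in 20-fiber pools, against 57.5, 66.4 and 60.7 in whole muscle. Its log2 fold change was 3.12 ± 0.81 (SE, adjusted p = 0.0167). mt-Co3 had 290.1, 1239 and 229.6 CPM per kb in single fibers, 384, 968 and 275 in 5-fiber pools and 249, 15.4 and 189.8 in 20-fiber pools, against 71.3, 57.2 and 67.6 in whole muscle, and changed by 2.59 ± 0.79 on the log2 scale (SE, adjusted p = 0.0363). mt-Atp6 had 117, 569 and 178 CPM per kb in single fibers, 299, 442 and 126 in 5-fiber pools and 162, 14.1 and 170.0 in 20-fiber pools, against 50.7, 27.1 and 36.5 in whole muscle, and changed by 2.59 ± 0.73 on that scale (SE, adjusted p = 0.0258). For each of these 3 genes 20-fiber pool 2 lay below whole muscle and the other 8 fiber libraries lay above it, and all 3 share nearly their whole length with chromosome 1. Leaving out any 1 whole muscle library left 0 of the 13 mRNAs called, beside 1.16% to 1.42% of all genes higher, and leaving out 20-fiber pool 2 gave 7, beside 5.78%.

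Each fiber group was also fitted against whole muscle on its own 6 libraries. These comparisons share the whole muscle libraries, so their values stand side by side and are not independent. In single fibers 10 of 13 mRNAs rose, 9 of them among the 12 that would have passed the filter from whole muscle alone. The other, mt-Nd4l, passed only through fiber libraries, so its call adds no support. The median log2 fold change of the 13 was 2.60 beside -0.12 for all 14028 genes tested, of which 33.6% were called in either direction and 13.9% were higher. mt-Nd4, a complex I subunit, had the largest change of an mRNA at 3.35 ± 0.57 (SE, adjusted p = 0.00533), followed by mt-Nd2 at 3.22 ± 0.51 (SE, adjusted p = 0.00427). mt-Co1, mt-Nd3 and mt-Atp8 did not pass, at log2 fold changes of 0.63, 1.05 and 2.02. All 3 single fibers exceeded all 3 whole muscle libraries for 11 of the 13 mRNAs, mt-Nd4l among them, a pattern found in 18.7% of the genes tested. mt-Nd2, mt-Nd4 and mt-Nd6 kept their calls in all 6 fits that left out 1 library, and all 3 lost them in a fit on the 12 libraries together (adjusted p = 0.111, 0.122 and 0.0904).

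In 5-fiber pools 7 mRNAs rose, with a median of 3.01 beside -0.03 for all genes, of which 8.85% were called, 4.63% higher and 4.22% lower. The 7 were mt-Co2 (3.80), mt-Nd6 (3.72), mt-Nd4 (3.52), mt-Co3 (3.16), mt-Nd1 (3.12), mt-Nd2 (3.05) and mt-Atp6 (3.01), all log2 fold changes. In 20-fiber pools mt-Nd6 (3.22), mt-Co2 (2.46) and mt-Atp6 (1.98) rose, with a median over the 13 of 1.59 beside 0.38 for all genes, of which 43.9% were called and 30.3% were higher. The calls of mt-Nd6, mt-Co2 and mt-Atp6 in 20-fiber pools depended on the fit. Without the filter edgeR called 0 of the 13 mRNAs there (adjusted p = 0.226, 0.0827 and 0.117 for these 3), and a fit on the 12 libraries together called mt-Nd6 alone. The number of calls in the pools moved with single libraries, and so did that over all genes. When 5-fiber pool 1 or a whole muscle library was left out, at most 1 of the 37 genes was called in 5-fiber pools, beside 1.31% of all genes without 5-fiber pool 1 and 0.0429% to 0.279% without a whole muscle library. Without 5-fiber pool 3 there were 23, beside 48.4% of all genes. Without 20-fiber pool 2, 10 of the 13 mRNAs rose in 20-fiber pools, beside 34.8% of all genes higher.

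The make-up of the mRNA reads, a measure that library scaling does not touch, differed between fibers and muscle. It was examined after values had been seen and carries no test. mt-Co1, the catalytic core of complex IV, took 20.3%, 5.11% and 15.8% of the mitochondrial mRNA reads in single fibers, 14.9%, 19.4% and 21.6% in 5-fiber pools and 9.05%, 12.1% and 9.89% in 20-fiber pools, against 32.5%, 31.8% and 30.5% in whole muscle. All 9 fiber libraries lay below whole muscle, and mt-Co1 was the largest mRNA by reads in whole muscle. mt-Nd1 ran the other way, with 21.99% to 33.0% over the fiber libraries against 17.4% to 18.2% in whole muscle. mt-Nd4 took 11.9% to 18.3% in fiber libraries against 7.26% to 7.33% in whole muscle, and mt-Nd2 took 7.91% to 16.9% against 6.62% to 7.26%. mt-Cytb and mt-Nd5 overlapped between fibers and muscle.

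**Figure D3:**
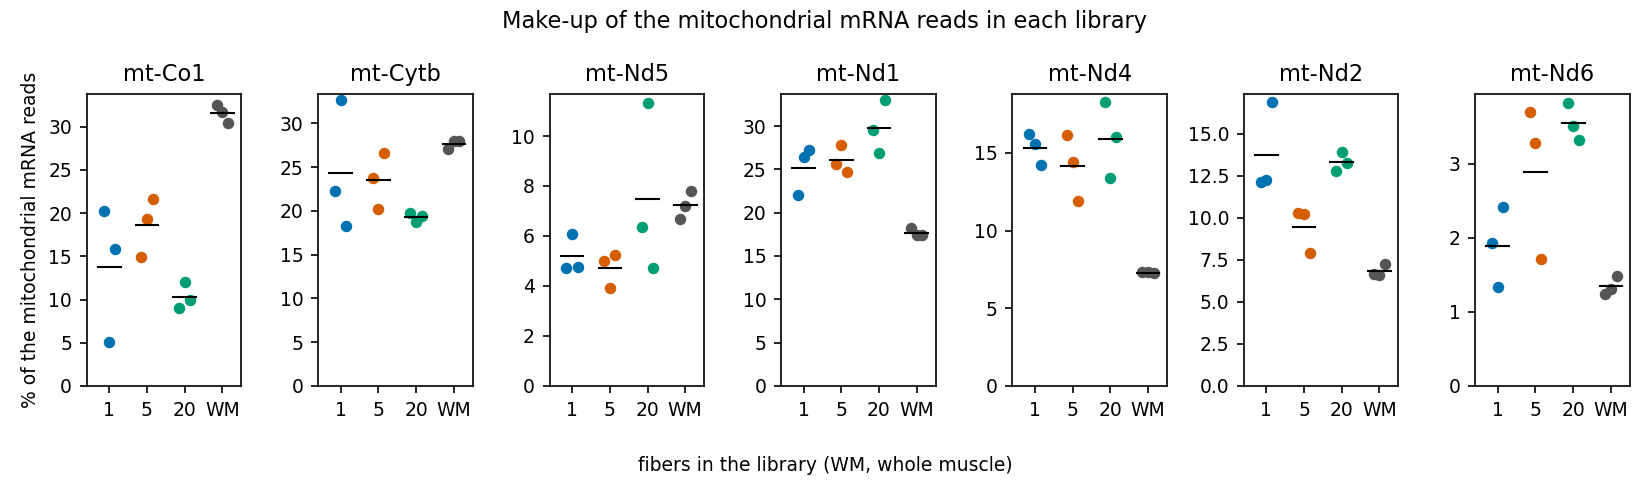
Share of the mitochondrial mRNA reads held by each of 7 mRNAs, in libraries of 1, 5 and 20 fibers and of whole muscle (WM); points are libraries, bars are group means of 3, and each panel has its own axis from 0. mt-Co1 lies lower in all 9 fiber libraries (5.11% to 21.6%) than in whole muscle (30.5% to 32.5%), and mt-Nd1, mt-Nd4 and mt-Nd2 lie higher.

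As a ratio of read densities per kb, mt-Nd1 over mt-Co1 was 1.75, 8.33 and 2.78 in single fibers, 2.78, 2.32 and 1.84 in 5-fiber pools and 5.27, 3.59 and 5.38 in 20-fiber pools, against 0.905, 0.887 and 0.920 in whole muscle. These genes sit on the same strand with mt-Co1 farther along it. 51.1% of the windows of mt-Co1 are shared with a nuclear transcript and none of those of mt-Nd1 are. Reads counted for Gm29216, the chromosome 1 copy of mt-Co1, numbered 608 to 50502 in fiber libraries and 355 to 841 in whole muscle. Gm13340, another copy, on chromosome 2, matched mt-Co1 at 1508 of 1545 bases and had 330 to 75234 reads in fiber libraries and 227 to 710 in whole muscle. mt-Co1 itself had 39251 to 564834 reads in fiber libraries and 180902 to 292067 in whole muscle. mt-Nd6 over mt-Nd5, neighbours whose ends overlap by 14 bases on opposite strands, was 0.773 to 1.78 in single fibers, 1.15 to 2.94 in 5-fiber pools and 1.09 to 2.47 in 20-fiber pools, against 0.642 to 0.667 in whole muscle.

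By the mean over the 12 libraries mt-Rnr2, the large-subunit rRNA of the mitochondrial ribosome, was the most abundant member at 72544 CPM per kb, and mt-Rnr1, the small-subunit rRNA, came below mt-Nd1 and mt-Cytb at 28092. In single fibers mt-Nd1 and mt-Cytb averaged 50896 and 46624 CPM per kb, above mt-Rnr2, but single fiber 2 carried these means. Among single fibers these 2 mRNAs lay above mt-Rnr2 only in single fiber 2, and in the others mt-Rnr2 was the higher. Among the pools, mt-Nd1 lay above mt-Rnr2 in 5-fiber pool 3 and 20-fiber pool 3. mt-Rnr2 had 42558, 29966 and 39441 CPM per kb in single fibers, 359723, 247335 and 21269.6 in 5-fiber pools and 61866, 10209 and 26308 in 20-fiber pools, against 9893, 10289.9 and 11671 in whole muscle. mt-Rnr1 had 19668, 11161 and 20799.6 CPM per kb in single fibers, 181182, 56944 and 6608 in 5-fiber pools and 23653, 2878 and 7435 in 20-fiber pools, against 2361, 2159.8 and 2255 in whole muscle. All 9 fiber libraries exceeded whole muscle for mt-Rnr1, while 20-fiber pool 2 fell within the whole muscle range for mt-Rnr2. Single fibers averaged 37322 ± 6558 CPM per kb for mt-Rnr2, against 10618 ± 934 in whole muscle (SD, n = 3 each).

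In single fibers both rRNAs rose, mt-Rnr1 by 2.99 ± 0.40 on the log2 scale (SE, adjusted p = 0.00235) and mt-Rnr2 by 1.87 ± 0.36 (SE, adjusted p = 0.00796). mt-Rnr2 lost this call without any 1 whole muscle library. In 5-fiber pools mt-Rnr1 rose by 5.22 ± 1.27 (SE, adjusted p = 0.0465), a call that was lost when 5-fiber pool 1, 5-fiber pool 2 or a whole muscle library was left out, and mt-Rnr2 stood at 4.39 ± 1.28 (SE, adjusted p = 0.0743). In 20-fiber pools mt-Rnr1 stood at 2.78 ± 1.35 and mt-Rnr2 at 2.10 ± 1.89 (adjusted p = 0.108 and 0.389). For isolated fibers as a whole edgeR called 0 of the 2 rRNAs, at 3.603 ± 1.51 for mt-Rnr1 and 2.72 ± 1.84 for mt-Rnr2 (adjusted p = 0.0987 and 0.331). There 1 of the 2 had an unadjusted p under 0.05, and DESeq2 called both higher, beside the same 20.8% of all genes.

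The 2 rRNAs are neighbours on 1 precursor, separated by mt-Tv, the valine tRNA. Per kb, mt-Rnr2 over mt-Rnr1 was 2.16, 2.68 and 1.90 in single fibers, 1.99, 4.34 and 3.22 in 5-fiber pools and 2.62, 3.55 and 3.54 in 20-fiber pools, against 4.19, 4.76 and 5.18 in whole muscle. Single fibers and 20-fiber pools lay below all whole muscle libraries, and 5-fiber pool 2 lay within their range.

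Of the 22 tRNAs, 16 had a read in at least 1 library and 9 to 15 had a read in any given library. The tryptophan, tyrosine, aspartate, lysine and glycine tRNAs (mt-Tw, mt-Ty, mt-Td, mt-Tk and mt-Tg) and the serine tRNA mt-Ts2 had no read in any of the 12. A count of 0 allows a share of up to 1.08e-05% to 6.38e-05% of the reads, 3 counts of each library's total. mt-Th, the histidine tRNA, had 1 read in all and mt-Ti, the isoleucine tRNA, had 5. These absences are limits of detection in these counts and say nothing of the tRNAs' presence in the tissue. mt-Td, mt-Tk and mt-Tg lie between genes with a copy in the chromosome 1 block. The part of depth and of shared reads in their counts of 0 was not tested.

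By the mean over the 12 libraries, which the pools dominate, 4 tRNAs stood above the rest, mt-Tq, mt-Tp, mt-Tc and mt-Te, which carry glutamine, proline, cysteine and glutamate. Their means were 3821, 2219, 1009 and 846 CPM per kb, and the next, mt-Tm, averaged 217. In whole muscle mt-Tm averaged 175 CPM per kb, below mt-Tq at 198 and above mt-Tc at 111, mt-Tp at 72.5 and mt-Te at 56.5. The 4 all lie on the minus strand. Minus-strand tRNAs took 85.4% to 98.3% of the tRNA reads of fiber libraries, against 63.4%, 69.2% and 80.6% in whole muscle, although they are 8 of the 22 genes. In their own sequence mt-Tq and mt-Tp have no run of A longer than 2, and mt-Tc and mt-Te none longer than 3. mt-Tr, the arginine tRNA with 24 reads in all, has the longest run of the 22 at 8. mt-Tm and mt-Tf, with 2374 and 1029 reads, have runs of 4, and mt-Tv and mt-Tg, with 56 and 0, have runs of 3. A-content was 26.8% in mt-Tq and 22.4% in mt-Tp, and T-content, which is A on the opposite strand, was 36.6% and 32.8%. Any link between runs of A and the tRNA values was not tested, and the strand of the reads is not known.

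**Figure D4:**
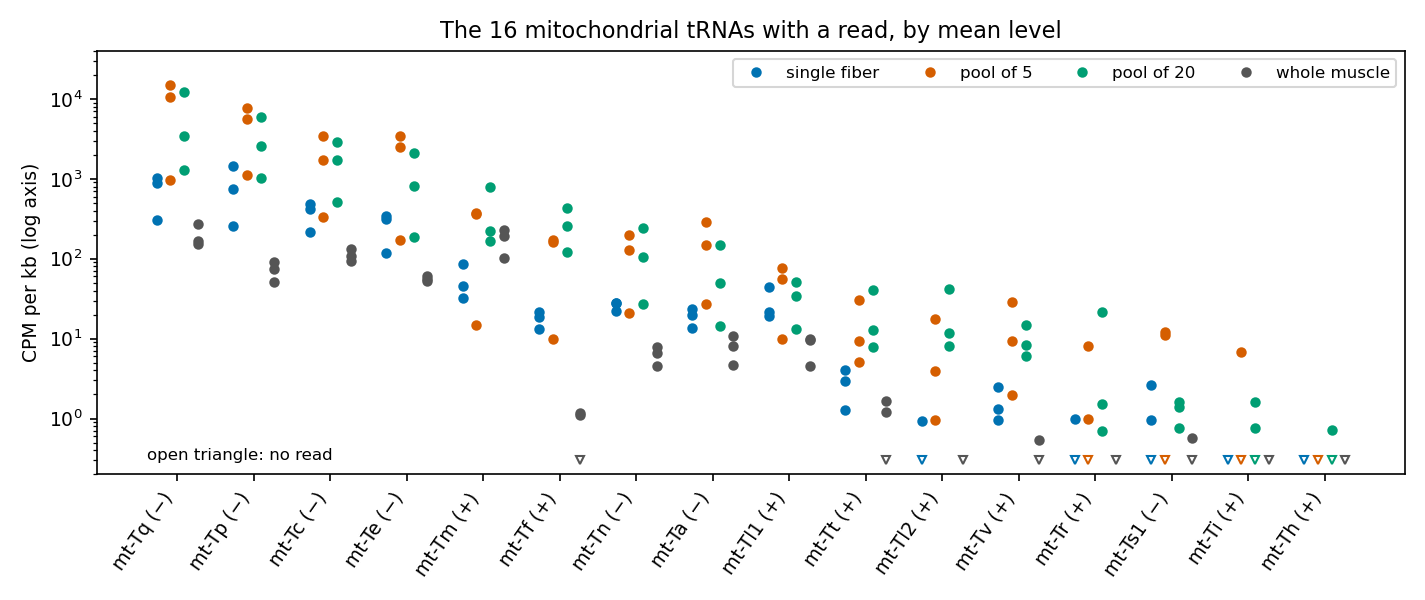
TMM-scaled CPM per kb (log axis) of the 16 mitochondrial tRNAs with a read, ordered by mean level, with the strand after each name; points are libraries, and open triangles mark groups with a library at 0. mt-Tq, mt-Tp, mt-Tc and mt-Te are highest by the 12-library mean, although in whole muscle mt-Tm (mean 175) lies above mt-Tp, mt-Tc and mt-Te; mt-Tm is also the tRNA for which single fibers lie below whole muscle.

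mt-Tq had 896, 306 and 1012 CPM per kb in single fibers, 10446, 14856 and 967 in 5-fiber pools and 12064, 1272 and 3435 in 20-fiber pools, against 155, 274 and 166 in whole muscle. mt-Tp had 754, 257 and 1464 CPM per kb in single fibers, 5567, 7625 and 1104 in 5-fiber pools and 6011, 1023 and 2603 in 20-fiber pools, against 51.5, 73.8 and 92.2 in whole muscle. mt-Tc had 422, 213 and 490.5 CPM per kb in single fibers, 1730.2, 3426 and 334 in 5-fiber pools and 2909, 515 and 1736 in 20-fiber pools, against 92.5, 109.6 and 131 in whole muscle. For these 3 tRNAs all 9 fiber libraries lay above whole muscle, with 5-fiber pool 2 and 20-fiber pool 1 the highest and single fiber 2 the lowest fiber library. mt-Te had 315, 116 and 339 CPM per kb in single fibers, 2467, 3441 and 172 in 5-fiber pools and 2129, 185 and 819.6 in 20-fiber pools, against 52.4, 61.3 and 55.9 in whole muscle, again with no overlap.

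mt-Tn, the asparagine tRNA, had 27.6, 22.4 and 27.9 CPM per kb in single fibers, 128, 200.4 and 21.0 in 5-fiber pools and 244, 27.3 and 105 in 20-fiber pools, against 4.52, 6.68 and 7.91 in whole muscle. mt-Ta, the alanine tRNA, had 23.5, 13.5 and 19.5 CPM per kb in single fibers, 149, 291 and 27.5 in 5-fiber pools and 149, 14.4 and 49.5 in 20-fiber pools, against 4.65, 10.9 and 8.14 in whole muscle. Both lie on the minus strand, and for both all fiber libraries were above whole muscle. In all, 8 tRNAs had the 9 fiber libraries above the 3 whole muscle libraries, which 2.17% of the genes tested had. Of these, mt-Tf, mt-Tv, mt-Ta and mt-Tn passed the low-count filter only through fiber libraries, so they add no support. mt-Tq, mt-Tc, mt-Te and mt-Tp would have passed from the whole muscle libraries alone.

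In isolated fibers as a whole 7 of the 12 tRNAs that passed the low-count filter rose and 0 fell (edgeR), while 11 had an unadjusted p under 0.05 and DESeq2 called 11 higher and 0 lower. Over all genes edgeR called 7.46% and DESeq2 20.8% higher. The edgeR fit of 9 fiber libraries as 1 group against 3 called 4 of the 12 higher, beside 0.977% of all genes. Of the 12, mt-Tq, mt-Tm, mt-Tc, mt-Te and mt-Tp would have passed the filter from the whole muscle libraries alone, and 4 of these 5 rose. The other 7, mt-Tf, mt-Ta and mt-Tn among them, passed only through fiber libraries, so their entry into the test favoured a higher value in fibers. mt-Tp rose by 5.15 ± 0.86 on the log2 scale (SE, adjusted p = 0.00068), mt-Tq by 4.198 ± 0.92 (SE, adjusted p = 0.00576), mt-Te by 3.98 ± 0.85 (SE, adjusted p = 0.00515), mt-Tn by 3.59 ± 0.76 (SE, adjusted p = 0.00467), mt-Tc by 3.39 ± 0.70 (SE, adjusted p = 0.00385) and mt-Ta by 2.99 ± 0.78 (SE, adjusted p = 0.0173). These are all 6 minus-strand tRNAs that were tested. Of the 6 plus-strand tRNAs tested, mt-Tf was called. mt-Tf, mt-Tq, mt-Tn, mt-Tc, mt-Te and mt-Tp kept their calls in all 12 fits that left out 1 library, and mt-Ta lost its call without whole muscle 1 or 3.

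Without the 5 pools with reads in over 50% of the receptor genes, the single fibers and 5-fiber pool 3 were left. Each remaining fiber group had equal weight in that fit, so 5-fiber pool 3 alone weighed as much as the 3 single fibers together. With 1 library standing for its group, only log2 fold changes are given. On that scale mt-Tp stood at 3.66, mt-Tq at 2.02, mt-Te at 1.81, mt-Tc at 1.59 and mt-Tf at 3.93. mt-Tf, with 3 reads over whole muscle, could pass the low-count filter only through fiber libraries. mt-Tn stood at 1.76, mt-Ta at 1.42 and mt-Tm at -2.73. The median over the 13 mRNAs was 2.19, beside -0.25 for all genes tested in that fit. mt-Nd6 stood at 2.45, mt-Co2 at 2.80, mt-Co3 at 2.49 and mt-Atp6 at 2.19. mt-Rnr1 stood at 2.15 and mt-Rnr2 at 1.32.

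mt-Tf was almost absent from whole muscle, with 1, 0 and 2 reads. It had 17, 19 and 10 reads in single fibers, 117, 76 and 10 in 5-fiber pools and 258, 159 and 360 in 20-fiber pools. As pooled reads per counted read, single fibers had 12.6 times the whole muscle level (exact 95% interval 4.04 to 63.2) and 20-fiber pools 442 times (151 to 2149). These intervals cover counting error only. The fitted log2 fold change in isolated fibers was 6.78 ± 1.00 (SE, adjusted p = 0.000275), and its size depends on the prior count.

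In single fibers alone 6 of 9 tRNAs tested rose and 1 fell, beside 13.9% of genes higher and 19.8% lower. Of the 5 that would have passed the filter from whole muscle alone, 4 rose and mt-Tm fell. mt-Tf (4.49 ± 0.93, adjusted p = 0.0101) and mt-Tp (3.62 ± 0.67, adjusted p = 0.00705) had the largest log2 fold changes, with SE. In 5-fiber pools 6 of 8 rose, all among the 7 that would have passed from whole muscle alone, led by mt-Tp at 6.15 ± 0.84 (SE, adjusted p = 0.0116) and mt-Tq at 5.59 ± 1.03 (SE, adjusted p = 0.0228). In 20-fiber pools the 5 tRNAs that would have passed the filter from whole muscle alone all rose, beside 30.3% of genes higher. These were mt-Tq, mt-Tm, mt-Tc, mt-Te and mt-Tp, the last at 5.95 ± 0.74 (SE, adjusted p = 6.14e-05). Another 5, mt-Ta, mt-Tf, mt-Tl1, mt-Tn and mt-Tt, passed only through the pools and were called higher too, with mt-Tf at 8.92 ± 0.61 (SE, adjusted p = 1.93e-06), a size that depends on the prior count. Their calls are no support, since the filter let them in through the group where they are high. The remaining 12 tRNAs were not tested. Of the 10 calls, mt-Tl1, mt-Tm and mt-Ta were lost without 20-fiber pool 1, mt-Tl1 and mt-Tm also without whole muscle 3 and mt-Tl1 also without whole muscle 1, and the other 7 held in all 6 fits that left out 1 library.

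**Figure D5:**
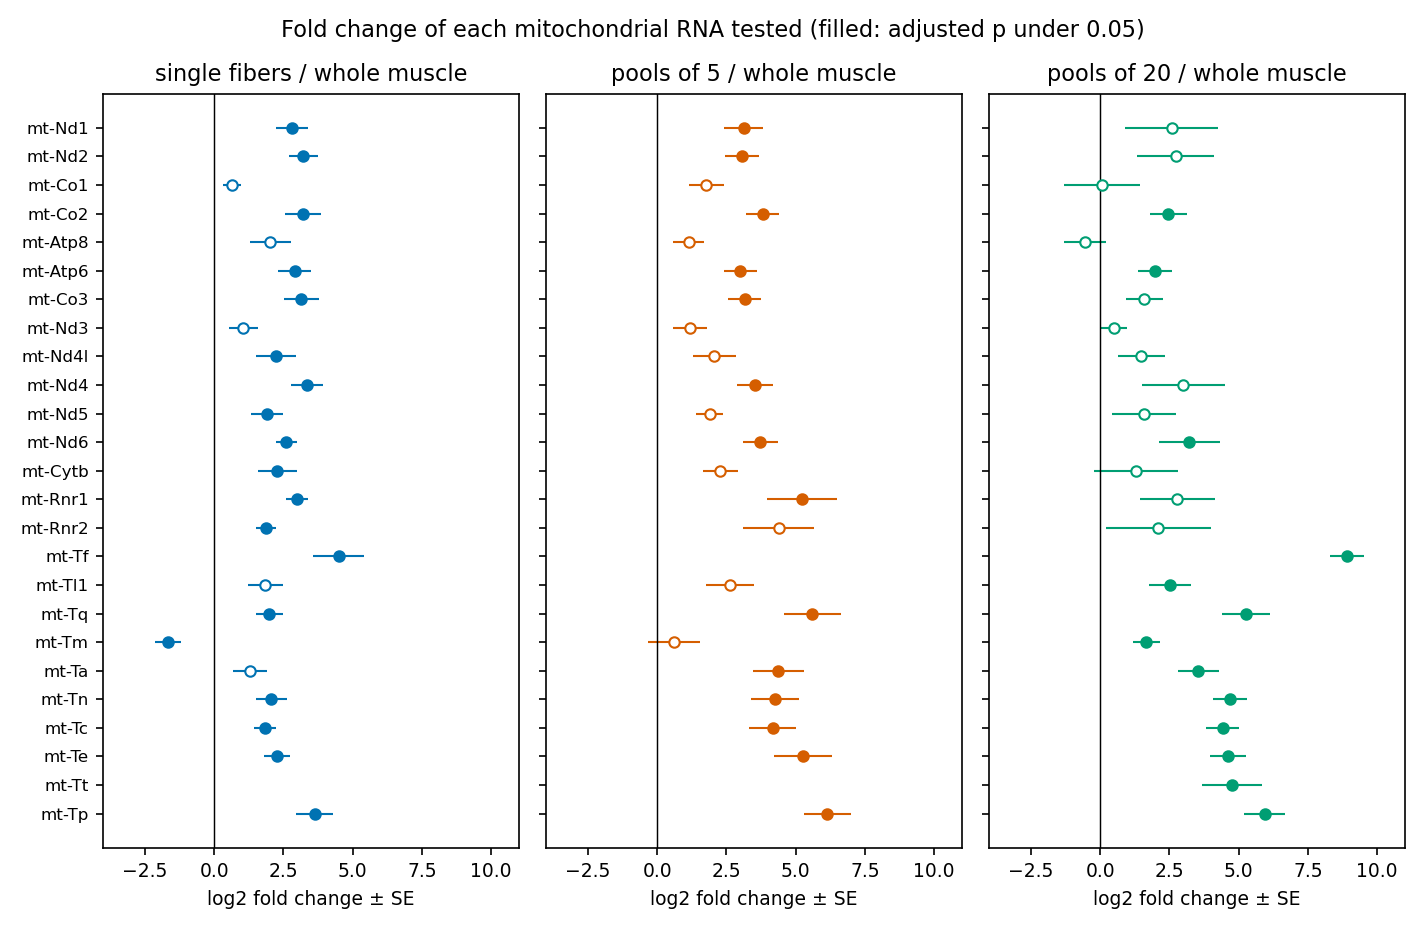
log2 fold change with SE (edgeR) of each mitochondrial RNA tested, in single fibers, 5-fiber pools and 20-fiber pools over whole muscle, 3 libraries per group; filled points have an adjusted p under 0.05 and gaps are genes not tested. In 20-fiber pools the 10 tRNAs tested are filled, of which mt-Ta, mt-Tf, mt-Tl1, mt-Tn and mt-Tt passed the low-count filter only through the pools. In single fibers 10 of 13 mRNAs and both rRNAs are filled and mt-Tm lies below 0. Of the filled points there, mt-Nd4l, mt-Tf and mt-Tn passed the filter only through the fibers.

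mt-Tm departed from the other tRNAs. It had 45.7, 85.5 and 32.6 CPM per kb in single fibers, 362, 374 and 14.7 in 5-fiber pools and 779, 167 and 224 in 20-fiber pools, against 194, 229 and 102 in whole muscle. Single fibers and 5-fiber pool 3 lay below whole muscle, and 5-fiber pools 1 and 2 and 20-fiber pool 1 lay above it. In single fibers mt-Tm fell by 1.66 ± 0.48 on the log2 scale (SE, adjusted p = 0.0316), the sole mitochondrial RNA called lower there, a call lost in 5 of the 6 fits that left out 1 library. In 20-fiber pools it rose by 1.67 ± 0.48 (SE, adjusted p = 0.0104), and in isolated fibers as a whole it stood at 0.14 ± 0.63 (SE, adjusted p = 0.986). Without the 5 pools with many receptor reads the value for isolated fibers turned to -2.73. In that fit 5-fiber pool 3, at 14.7 CPM per kb, weighed as much as the 3 single fibers together. As a share of tRNA reads, looked at after its values were seen, mt-Tm took 1.81%, 7.92% and 0.960% in single fibers, 1.71%, 1.22% and 0.555% in 5-fiber pools and 3.12%, 4.98% and 2.42% in 20-fiber pools, against 34.3%, 29.4% and 18.0% in whole muscle. mt-Tp took 23.1% to 41.9% in fiber libraries against 8.83%, 9.21% and 15.8% in whole muscle. In both shares all 9 fiber libraries lay apart from whole muscle.

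In single fibers against 20-fiber pools 0 of 37 members rose and 10 fell, all tRNAs, out of 27 tested, beside 8.51% of all genes higher, 27.5% lower and 36.0% called. Of the 10, mt-Tf, mt-Tl2, mt-Tt and mt-Tv passed the low-count filter only through the 20-fiber pools. Of the 7 tRNAs that would have passed from single fibers alone, 6 fell. Leaving out any 1 single fiber left 4 tRNAs called, beside 33.5% or more of all genes lower. Leaving out 20-fiber pool 1 left 6, beside 39.2%. With the replicate number as a block in the fit 0 tRNAs were called, beside 0.0412% of all genes. Of the 13 mRNAs and 2 rRNAs edgeR called 0, with 1 mRNA at an unadjusted p under 0.05, and DESeq2 called 1 mRNA higher, beside 1871 of all 16978 genes. The median log2 fold change was 0.59 over 13 mRNAs and -0.74 over all genes tested. mt-Tf stood at -4.43 ± 0.54 (SE, adjusted p = 0.0017) and kept its call in all 6 fits that left out 1 library. mt-Tl2, a leucine tRNA, had 0, 1 and 0 reads in single fibers against 26, 16 and 12 in 20-fiber pools, a ratio of pooled reads of 0.0089 (exact 95% interval 0.000221 to 0.0517, counting error only).

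In single fibers against 5-fiber pools edgeR called 0 of 24 members tested, while 8 had an unadjusted p under 0.05, all tRNAs, and DESeq2 called 5 lower, beside 3.11% of all genes. With edgeR 0.0157% of all genes were called. The largest differences were those of mt-Tq at -3.72 ± 1.05 (SE, adjusted p = 0.328) and mt-Ta at -3.22 ± 0.92 (SE, adjusted p = 0.336). In 5-fiber against 20-fiber pools neither edgeR nor DESeq2 called any of 27 members, and 0 had an unadjusted p under 0.05 with edgeR. Over all genes edgeR called 0.0% and DESeq2 1.05%. Values there ran between -1.69 for mt-Tl2 and 2.73 for mt-Rnr1, with SE of 0.73 to 2.47, so differences of several fold in either direction were not detectable.

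Nuclear genes whose products transcribe, process and maintain mitochondrial RNA and DNA were listed by role, 48 in all, of which 46 were tested in isolated fibers. The most abundant were Fastk, Hsd17b10, Grsf1 and Ssbp1, at means of 82.3, 69.2, 68.7 and 53.5 CPM over the 12 libraries. Fastk and Grsf1 act in mitochondrial RNA stability and processing, Hsd17b10 is a subunit of the enzyme that cuts the tRNA 5' end and Ssbp1 binds single-stranded mitochondrial DNA. In isolated fibers the median log2 fold change was -0.41 over the 46 and 0.40 over all genes tested. There edgeR called 0 of the 46 higher and 2 lower, beside 7.46% of genes higher and 7.78% lower. The 2 were Tk2, the mitochondrial thymidine kinase, at -1.79 ± 0.51 (SE, adjusted p = 0.0273) and the termination factor gene Mterf1a at -3.79 ± 1.19 (SE, adjusted p = 0.0419), with 7 at an unadjusted p under 0.05.

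In single fibers Tk2 fell by 3.89 ± 0.68 (SE, adjusted p = 0.00595) and Fastk by 1.01 ± 0.30 (SE, adjusted p = 0.0365). Tbrg4, another gene of the Fastk family, rose by 1.19 ± 0.29 (SE, adjusted p = 0.0182). These were the calls out of 45 tested, beside 13.9% of all genes higher and 19.8% lower. In 5-fiber pools Tbrg4 rose by 1.56 ± 0.35 (SE, adjusted p = 0.0378) and no other listed gene was called, beside 4.63% of all genes higher and 4.22% lower. In 20-fiber pools Tbrg4 rose and 11 of 46 fell, beside 30.3% of all genes higher and 13.6% lower. The 11 included Tefm, the transcription elongation factor, at -2.54 ± 0.40 (SE, adjusted p = 0.000235) and Trmt10c, a subunit of the same tRNA-cutting enzyme, at -1.77 ± 0.34 (SE, adjusted p = 0.000652).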

How the data were processed

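RNA was measured in 12 libraries of mouse EDL myofibers or whole EDL muscle. The authors deposited whole-number counts of reads per Ensembl gene, and the submitters' processing notes name HISAT2, SAMtools, featureCounts and the build GRCm38 (mm10) with no versions or settings. Treatment of multi-mapping reads and of strand is not given in the sources used here. Of 55573 rows, 55480 matched the GENCODE vM21 annotation. The members and lists were chosen with earlier results of these data known.

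Counts were tested with edgeR 4.0.16 in R 4.3.3 (TMM factors, filterByExpr, quasi-likelihood F test, adjusted p over all genes tested, threshold 0.05), each pair of groups on its own 6 libraries and isolated fibers on all 12, and 7 comparisons were made. SE is the log2 fold change over the root of F. Alternatives used other scaling factors, no filter, DESeq2 1.42.0, other designs and left-out libraries. The test was checked on simulated counts with 1 dispersion for all genes and libraries. That check does not cover the larger spread and the scaling differences of these libraries. CPM used TMM factors over the 12 libraries. Shared 50-base windows were found with Python 3.11.15 among annotated transcripts. Values were given by library for the rRNAs, the 3 highest and 2 lowest mRNAs and tRNAs, and the members called in isolated fibers, with the 2 largest calls in the other comparisons. No 2 libraries of a group agreed within sampling noise, so each counted as 1 sample.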

Additional observations from a re-analysis of the deposited data

Results flagged for a closer look

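10 tRNAs differed between the fiber groups by the test of the difference itself, single fibers against pools of 20 (edgeR, adjusted p under 0.05). All 10 were lower in single fibers, beside 27.5% of all genes lower and 36.0% called. The log2 fold changes were -5.93 for mt-Tl2, -4.43 for mt-Tf, -3.35 for mt-Tm, -3.26 for mt-Tq, -3.26 for mt-Tt, -3.11 for mt-Tv, -2.63 for mt-Tn, -2.59 for mt-Tc, -2.34 for mt-Te and -2.33 for mt-Tp. mt-Tf, mt-Tl2, mt-Tt and mt-Tv passed the low-count filter only through the pools of 20, so their calls add no support, and of the 7 tRNAs that would have passed from single fibers alone 6 fell. Leaving out any 1 single fiber left 4 tRNA calls, and leaving out a pool of 20 left 6 to 9. A fit with the replicate number as a block left 0, beside 0.0412% of all genes called. mt-Tl2 rests on 1 read in single fibers, so its fitted size depends on the prior count. mt-Tt carries threonine and mt-Tv valine, with 7 and 4 reads over the 3 single fibers and 52 and 29 over the 3 pools of 20. Receptor genes with a read made up 4.85% to 26.7% of their number in single fibers and 78.7% to 97.3% in pools of 20, and the part of this difference in the tRNA values was not tested. With 3 libraries per group no single library was tested for standing apart.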

How the results depend on the processing

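The number of mitochondrial genes called depended on single libraries in most comparisons. Leaving out 1 library at a time gave 6 to 15 calls in isolated fibers against whole muscle (11 with all libraries), 5 to 19 in single fibers (19), 0 to 23 in 5-fiber pools (14), 10 to 24 in 20-fiber pools (13), 0 to 7 in single fibers against 5-fiber pools (0), 4 to 9 in single fibers against 20-fiber pools (10) and 0 in 5-fiber against 20-fiber pools (0). The extremes were 5 to 6 calls in single fibers without any 1 whole muscle library (10.4% to 11.8% of all genes called), 0 in 5-fiber pools without any 1 whole muscle library (0.0429% to 0.279%) and 23 without 5-fiber pool 3 (48.4%), and 24 in 20-fiber pools without 20-fiber pool 2 (57.8%). Calls over all genes thus moved as well.

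DESeq2 gave 24 calls in isolated fibers (29.0% of all genes called), 21 in 20-fiber pools (48.7%) and 5 in single fibers against 5-fiber pools (3.33%). Without the filter there were 6 in single fibers against 5-fiber pools (1.84%). A fit on all 12 libraries gave 5 in single fibers (12.9%) and 9 in 5-fiber pools (3.94%) against whole muscle. It gave 2 in single fibers against 5-fiber pools (3.41%), and a fit of 9 fiber libraries against 3 gave 4, all tRNAs (2.7%). The causes of these shifts were not tested. mt-Tm in isolated fibers reversed to -2.73 without the 5 pools with many receptor reads. No such library is in the comparison of single fibers with whole muscle, so that alternative was not run there.

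The labels state no pairing of libraries by replicate number, so the main fits had no block. Correlations of same-numbered deviations ran between -0.247 and 0.617, and no pair of groups had all 3 over 0.1. Between 5-fiber and 20-fiber pools they were -0.149, 0.617 and 0.321. With 3 libraries per group these correlations cannot exclude a pairing. With a replicate block the calls against whole muscle were 10 in isolated fibers (13.8% of all genes called) and 15 in single fibers (22.3%). They were 2 in 5-fiber pools (1.56%) and 10 in 20-fiber pools (41.8%), where the 10 were all tRNAs with 0 of 13 mRNAs. In each comparison between fiber groups there were 0. In single fibers against 20-fiber pools, where 10 tRNAs were called without the block, 0.0412% of all genes were called with it. Scaling moved the median of all genes in isolated fibers between 0.40 with TMM and 0.69 with upper-quartile factors, where 65.1% of calls were higher against 49.0% with TMM. In 5-fiber pools that share was 63.6% with RLE factors and 52.3% with TMM. No member changed sign against whole muscle under another scaling except mt-Co1 in 20-fiber pools, uncalled, which fell below 0 with scaling from nuclear genes. Low counts limit the tRNAs, of which 6 had no read.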
